A study of Mus musculus with 11 samples.

Results

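The 4 adult globin genes Hba-a1, Hba-a2, Hbb-bs and Hbb-bt and the heme gene Alas2 were followed through RNA-seq libraries of mouse colon. The 5 genes were chosen by name, and they are 5 of the 35683 genes in the deposited table. Each library holds RNA of the whole colon wall of a 2-week-old mouse, with 6 Tnfr1-/- and 5 wild-type mice, and the comparison asks what loss of this receptor changes in the colon early in life. Tnfr1 is a receptor for tumor necrosis factor and is encoded by Tnfrsf1a. The labels give neither strain, sex, litter, the design of the deleted allele nor a sequencing batch, and they do not mention perfusion of the tissue or depletion of globin RNA. Values are transcript abundances per length (TPM, a length-corrected transcript abundance scaled to a fixed library total, divided by a size factor of the library), summed over the transcripts of a gene. In brief, the globin genes rose and fell together from library to library, no member passed the test between genotypes, and all 5 were more spread out among the Tnfr1-/- libraries than among the wild-type ones.

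Hemoglobin is made of alpha chains and beta chains, each holding a heme group that binds oxygen. Red blood cells lose their nucleus before they enter the circulation, but the youngest of them, the reticulocytes, still carry globin messenger RNA, so a tissue taken with its blood yields globin reads. Alas2 encodes the erythroid form of 5-aminolevulinate synthase, the first enzyme of heme synthesis, while Alas1 encodes the form used by other tissues. In RNA of a whole tissue, fewer cells of a type and less RNA per cell cannot be told apart.

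The globin genes come as near-identical pairs, which limits how well their reads can be told apart, so the coding stretches that end at the differing base are shown first. On GRCm38 the main transcript of Hba-a1 lies on chromosome 11 from 32283511 to 32284465 and that of Hba-a2 from 32296489 to 32297298, both on the plus strand. The main transcript of Hbb-bs lies on chromosome 7 from 103826534 to 103827928 and that of Hbb-bt from 103812524 to 103813996, both on the minus strand. The 2 alpha coding sequences differ at 1 of 429 bases (C381T, from Hba-a1 to Hba-a2), and the 2 beta coding sequences at 1 of 444 (C417T, from Hbb-bs to Hbb-bt). Positions count from 1 at the A of the start codon, and each difference lies in exon 3 of 3. The stretches run from base 322 to 381 for the alpha genes and from 328 to 417 for the beta genes, 5′ to 3′ on the coding strand, with the differing base in capitals.
Hba-a1, chr11:32284284-32284343: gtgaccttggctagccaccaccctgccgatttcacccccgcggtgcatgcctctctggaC
Hba-a2, chr11:32297101-32297160: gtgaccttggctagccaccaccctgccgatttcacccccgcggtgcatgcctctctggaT
Hbb-bs, chr7:103826692-103826781: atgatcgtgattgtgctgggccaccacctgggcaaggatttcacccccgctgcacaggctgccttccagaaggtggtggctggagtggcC
Hbb-bt, chr7:103812683-103812772: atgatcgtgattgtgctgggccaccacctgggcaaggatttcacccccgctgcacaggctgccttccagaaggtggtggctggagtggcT

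Of all windows of 75 bases, the length of a read here, 62.2% in Hba-a1 and 81.0% in Hba-a2 also occur in the other alpha copy. The shares are 64.3% in Hbb-bs and 56.6% in Hbb-bt for the other beta copy, and 0 in Alas2. The windows not found in the other copy number 236 in Hba-a1, 91 in Hba-a2, 198 in Hbb-bs and 273 in Hbb-bt. Each of them contains the differing coding base or reaches into the ends of the model. The Hba-a1 model has 196 bases before the start codon and the Hba-a2 model 35, while the Hbb-bt model has 127 and the Hbb-bs model 53. After the stop codon the models have 74 bases in Hba-a1, 90 in Hba-a2, 131 in Hbb-bs and 132 in Hbb-bt. The deposited split between 2 copies is therefore an estimate that rests on the differing coding base and on these ends. How much rests on each was not tested. The effective lengths are 500 bases for Hba-a1, 355 for Hba-a2, 429 for Hbb-bs and 504 for Hbb-bt, so a pair's summed abundance per length, the globin total and the alpha to beta ratio also depend on the split, and only a sum in reads does not. Alas2 lies on chromosome X from 150547375 to 150570638 on the plus strand, and its longest model has 11 exons.

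**Figure D1:**
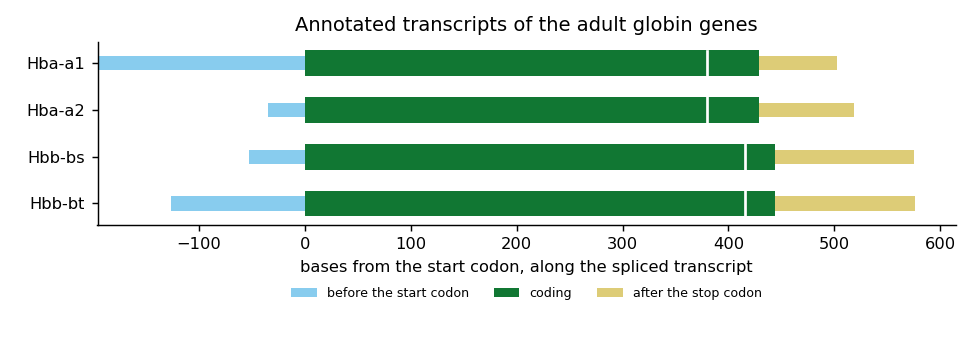
Each bar is the main annotated transcript of an adult globin gene, drawn to scale in bases from the start codon along the spliced transcript, with the stretch before the start codon in blue, the coding sequence in green and the stretch after the stop codon in yellow. The white line marks the 1 coding base at which the copies of a pair differ, base 381 for the alpha genes and 417 for the beta genes, and the models differ more in their ends than in their coding sequence.

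Promoter windows are shown to compare the pairs around their start sites. All 5 members had an entry in the RefSeq promoter table (GRCm38.p6). The windows of a pair were compared without gaps, at the small shift that gave the best match. Those of Hba-a1 and Hba-a2 were identical over the 297 bases compared, while those of Hbb-bs and Hbb-bt matched at 56.2% of 299. An insertion or deletion would lower such a match. The windows run past the RefSeq start site. The main GENCODE models begin upstream of it by 161 bases for Hba-a1, 3 for Hba-a2, 73 for Hbb-bt and 42 for Alas2. That of Hbb-bs begins at the site itself, and another annotated Hbb-bs model begins 168 bases upstream. The Hbb-bs models other than the main one were listed at 0 in every library. The windows thus include bases that the main models transcribe. The 161 bases by which the Hba-a1 model begins further upstream lie in the stretch that is identical in Hba-a2. They separate the annotated models rather than the gene copies. Capitals mark CCAAT, the TATA-like letters CATATAA or TATAAA, a match to CCNCNCCC (the CACCC box pattern) and, in Alas2, the reverse complement of the GATA motif AGATAA. Positions are from the RefSeq start site.
Hba-a2 from -100 to -20, chr11:32296392-32296472 (plus strand): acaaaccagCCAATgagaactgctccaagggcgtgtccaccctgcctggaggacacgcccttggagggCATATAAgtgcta
Hbb-bs from -97 to -68, chr7:103827996-103828025 (minus strand): agagCCACACCCtggtaagggCCAATctgc
Hbb-bs from -45 to -16, chr7:103827944-103827973 (minus strand): gagccagggcagagCATATAAggtgaggta
Hbb-bt further upstream, chr7:103814004-103814035 (minus strand): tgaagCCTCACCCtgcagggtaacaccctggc
Hbb-bt from -45 to -16, chr7:103813939-103813968 (minus strand): ggagccagcATTGGgtaTATAAAgctgagc
Alas2 from -100 to -71, chrX:150547317-150547346 (plus strand): gactactttgctttTTATCTttagcagagg

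Searched on both strands, CCAAT occurred in the windows of all 4 globin genes and in 37.4% of 32851 promoters of the same length. In Hbb-bt it matched on the gene's own strand at -75 to -71 and on the opposite strand at -80 to -76, both outside the stretches shown. A further match on the opposite strand (-36 to -32) lies within the second stretch shown, printed there as ATTGG. The letters CATATAA, whose search was added after the members' promoters had been read, occurred in Hba-a1, Hba-a2 and Hbb-bs and in 2.31% of promoters. TATAAA occurred in Hbb-bt (-28 to -23), in Alas2 on the opposite strand (-209 to -204) and in 13.6% of promoters. ATAAAA occurred in Alas2, also on the opposite strand, and in 18.5% of promoters. CCACACCC occurred in Hbb-bs and in 3.56% of promoters, and its looser form CCNCNCCC in Hbb-bs, Hbb-bt and Alas2 and in 49.5%. Of the GATA motifs, AGATAA occurred in Alas2 and Hbb-bs and in 11.2% of promoters, TGATAA in both alpha genes and in 9.05%, AGATAG in no member and in 8.95%, and TGATAG in no member and in 7.29%. In Alas2 the matches to ATAAAA (-88 to -83) and AGATAA (-86 to -81) overlap, and CCACACCC is contained in CCNCNCCC.

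Before the members' values, the libraries were checked. Tnfrsf1a was lower in every Tnfr1-/- library, with 22.4 ± 3.54 (SD, n = 6) against 67.1 ± 5.04 in wild type (n = 5), a log2 fold change of -1.57 (limma, adjusted p = 8.52e-05). It was the only gene of 15079 tested that passed an adjusted p of 0.05, so that 0.00663% of tested genes were called. The estimated depth was 27.4 to 41.8 M reads per library. The defining genes of colon tissue were present, with group means of 728 and 804 for Epcam (an epithelial adhesion protein) and 2008 and 2030 for Actg2 (smooth muscle actin) in Tnfr1-/- and wild type. Nothing in the labels says whether the mice came from separate litters. The p-values between genotypes judge a difference of group means against the variation between these libraries.

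Beta globin was the most abundant member. Hbb-bs had abundances of 161, 189, 262, 249 and 233 in wild-type replicates 1 to 5. In Tnfr1-/- it ran from 117 in replicate 3, with a median of 215, to 535 in replicate 5. The Tnfr1-/- values enclosed all of the wild-type values, with replicates 1 (358) and 5 above and replicate 3 below them. Group means were 269 ± 155 (SD, n = 6) in Tnfr1-/- and 219 ± 42.5 (n = 5) in wild type.

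Hbb-bt, the second adult beta gene, had 88.7, 104, 115, 144 and 105 in wild-type replicates 1 to 5. In Tnfr1-/- the lowest value was 67.0, the median 124 and the highest 282. Here too replicates 1 and 5 of Tnfr1-/- lay above all wild-type libraries. Replicate 4 of Tnfr1-/- (152) did as well, and replicates 2 (78.5) and 3 lay below them. The means were 142 ± 80.8 and 111 ± 20.7 in Tnfr1-/- and wild type.

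Of the alpha genes, Hba-a1 had 129, 137, 186, 180 and 144 in wild-type replicates 1 to 5, against a lowest value of 79.5, a median of 165 and a highest of 396 in Tnfr1-/-. Its means were 192 ± 115 in Tnfr1-/- and 155 ± 26.1 in wild type. Hba-a2 had 65.4, 80.9, 131, 110 and 96.5 in wild-type replicates 1 to 5, against 50.8, 96.2 and 236 for the lowest, median and highest Tnfr1-/- library. Its means were 119 ± 68.8 and 96.8 ± 25.5. The groups overlapped for both alpha genes, and the Tnfr1-/- range again enclosed the wild-type range.

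Alas2 was far less abundant than any globin gene. It had 1.63, 3.20, 2.88, 3.25 and 3.05 in wild-type replicates 1 to 5, and a lowest value of 0.948, a median of 3.27 and a highest of 4.81 in Tnfr1-/-. The means were 3.01 ± 1.38 and 2.80 ± 0.668. These values correspond to an estimated 41 to 262 reads per library, against 488 to 7631 for the globin genes. Of its 4 transcripts in the table, the longest form was above 0 in all 11 libraries, 1 noncoding form in 9, a second coding form in 8 and a retained-intron form in 1. For the globin genes, the abundance of each gene came from 1 transcript, and the retained-intron and minor coding models were listed at 0 in every library.

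**Figure D2:**
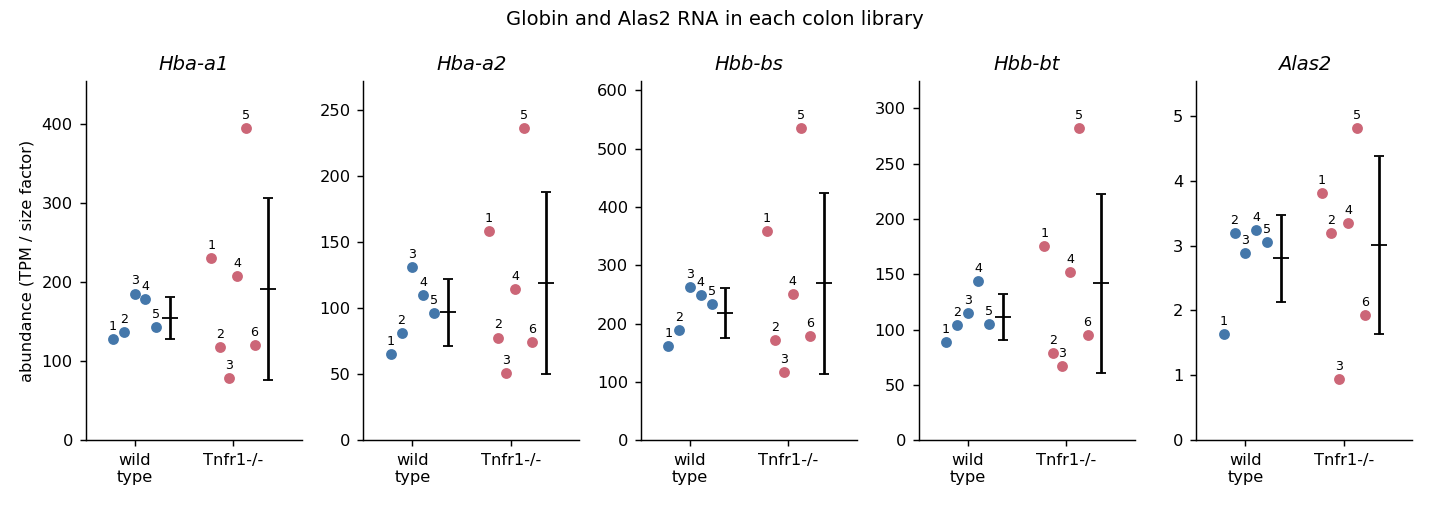
Each panel shows 1 gene, with abundance (TPM divided by the library's size factor, linear axis from 0) of every wild-type (blue) and Tnfr1-/- (red) library, the replicate number above each point and the group mean with its SD as a black bar. In all 5 panels Tnfr1-/- replicate 5 is the highest and Tnfr1-/- replicate 3 the lowest of the 11 libraries.

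Abundances per length kept nearly the same order within every library. Hbb-bs exceeded Hba-a1 in 11 of 11 libraries, with a ratio of means of 1.40. Hba-a1 exceeded Hbb-bt in 11 of 11, with a ratio of 1.37. Hbb-bt exceeded Hba-a2 in 10 of 11, the exception being wild-type replicate 3, and with a ratio of 1.18 these neighbors are the closest in the order. Hba-a2 exceeded Alas2 in every library, by 37.3 times in the mean. The mean shares of adult globin abundance were 37.5% for Hbb-bs, 26.6% for Hba-a1, 19.5% for Hbb-bt and 16.5% for Hba-a2 over the 11 libraries.

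The summed globin abundance of a library, rescaled to TPM, is a description of how much adult globin RNA it holds. It was 437, 507, 676, 730 and 548 TPM in wild-type replicates 1 to 5. In Tnfr1-/- replicates 1 to 6 it was 933, 478, 311, 727, 1452 and 457. Globin thus made up 0.0580% of summed TPM in wild-type and 0.0726% in Tnfr1-/- libraries in the mean. These are shares of abundance per length, not of reads. The highest over the lowest library was 1.67-fold in wild type and 4.67-fold in Tnfr1-/-, with coefficients of variation of 20.9% and 57.7%. Adult globin was at most 0.145% of summed TPM in any library, that of Tnfr1-/- replicate 5.

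Against this, none of the 5 members passed the test between genotypes (0 of 5, against 0.00663% of all tested genes). None passed an unadjusted p of 0.05 (against 9.37% of tested genes), and the groups overlapped for all 5, while they did not overlap for 1.49% of tested genes. On the log2(value + 0.5) scale, Hba-a1 differed by 0.12 ± 0.35 (SE, Tnfr1-/- minus wild type, limma adjusted p = 0.947) and Hba-a2 by 0.15 ± 0.36 (adjusted p = 0.940). Hbb-bs differed by 0.14 ± 0.34 (limma adjusted p = 0.941) and Hbb-bt by 0.18 ± 0.33 (adjusted p = 0.906). Alas2 differed by -0.00042 ± 0.31 (limma adjusted p = 0.9998). Over all tested genes the median difference was -0.0061, and 47.9% were positive. The 95% intervals of the fold, Tnfr1-/- over wild type, were 0.641 to 1.85 for Hba-a1, 0.644 to 1.90 for Hba-a2, 0.656 to 1.84 for Hbb-bs, 0.684 to 1.88 for Hbb-bt and 0.627 to 1.59 for Alas2. Every interval includes no change, and mean differences up to its ends are compatible with these libraries.

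Without Tnfr1-/- replicate 5 the 4 globin differences turned negative, to -0.12 for Hba-a1, -0.09 for Hba-a2, -0.10 for Hbb-bs and -0.05 for Hbb-bt. Without Tnfr1-/- replicate 3 they were 0.34 for both Hba-a1 and Hbb-bs, 0.35 for Hba-a2 and 0.36 for Hbb-bt, and no member passed the test in either case. In the authors' deposited table, the log2 ratio of group means was 0.31, 0.30, 0.30 and 0.35 for the main transcripts of Hba-a1, Hba-a2, Hbb-bs and Hbb-bt, with a q-value of 1.0 for each. Those ratios are of means on the linear scale, on which Tnfr1-/- replicate 5 weighs more than on the log scale.

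The members were more spread out among the Tnfr1-/- libraries, which is given as a description and was not tested. The SD of the log2 values was 0.83 in Tnfr1-/- and 0.24 in wild type for Hba-a1, 0.80 and 0.39 for Hba-a2, 0.79 and 0.29 for Hbb-bs, 0.79 and 0.26 for Hbb-bt and 0.68 and 0.34 for Alas2. All 5 members had the larger SD in Tnfr1-/-, whereas 35.2% of the 15079 tested genes did, and the median gene had an SD of 0.14 in Tnfr1-/- and 0.18 in wild type. The ratio of SDs was 3.48 for Hba-a1, a value that 1.499% of tested genes reached or passed. It was 3.06 for Hbb-bt (2.49% of genes), 2.68 for Hbb-bs (3.83%), 2.08 for Hba-a2 (7.83%) and 1.99 for Alas2 (8.65%). Because the members move together, these are not 5 separate cases of a wide spread.

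For the 4 globin genes, the SD stayed larger in Tnfr1-/- whichever single library was left out. Without Tnfr1-/- replicate 5 the ratio of SDs was 2.65 for Hba-a1, 1.61 for Hba-a2, 2.06 for Hbb-bs and 2.33 for Hbb-bt. Without Tnfr1-/- replicate 3 it was 3.03, 1.81, 2.34 and 2.84 for the same genes. Without wild-type replicate 4 the ratio of Hbb-bt was 5.06. For Alas2, single libraries decided the size. Its ratio was 1.21 without Tnfr1-/- replicate 3 and 10.3 without wild-type replicate 1.

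**Figure D3:**
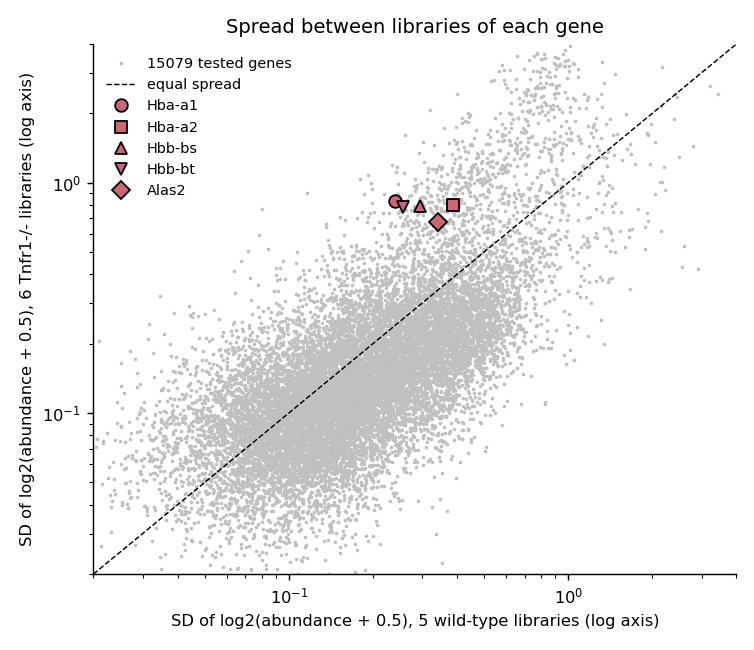
Each gray point is 1 of the 15079 tested genes, with the SD of its log2(abundance + 0.5) over the 5 wild-type libraries on the horizontal axis and over the 6 Tnfr1-/- libraries on the vertical axis, both on log axes, and the dashed line marks equal spread. All 5 members (red symbols) lie above the line, at 0.68 to 0.83 in Tnfr1-/- and 0.24 to 0.39 in wild type.

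The members changed together over the 11 libraries. Tnfr1-/- replicate 5 ranked first, Tnfr1-/- replicate 1 second and Tnfr1-/- replicate 3 last for all 5 genes. Pearson's r of log2 values over the 6 globin pairs was 0.947 (Hba-a2 with Hbb-bt) to 0.992 (Hba-a2 with Hbb-bs), with Spearman's rho of 0.945 to 0.991. In a permutation test with 100000 resamples, the Benjamini-Hochberg adjusted p for r over all 10 pairs of members was 2.5e-05 to 6.7e-05 for these 6, and the lowest raw p, 1.0e-05, is the smallest the test can give. Without the 2 libraries farthest from the median, Tnfr1-/- replicates 3 and 5, r was 0.858 to 0.981 over the globin pairs. With the group means removed, r of Hba-a2 with Hbb-bs was 0.992 as well. Reads that 2 copies share tie the members of a pair to each other but not an alpha gene to a beta gene.

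Alas2 followed the globin genes less closely. Its r was 0.788 with Hbb-bt, 0.833 with Hba-a1, 0.848 with Hbb-bs and 0.852 with Hba-a2, with rho of 0.809 to 0.855. By the same permutation test over 10 pairs, the adjusted p of r was 0.00133 to 0.00484. Without the 2 farthest libraries r was 0.619 to 0.718. Those libraries were Tnfr1-/- replicates 3 and 5, or 1 and 5 for the pair with Hbb-bt.

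The ratio of alpha to beta globin stayed within narrow bounds while the total moved. It was 0.777, 0.745, 0.841, 0.736 and 0.710 in wild-type replicates 1 to 5 and 0.729, 0.783, 0.707, 0.802, 0.773 and 0.710 in Tnfr1-/- replicates 1 to 6. The highest was 1.19 times the lowest, against 4.67-fold for the globin total. The geometric means were 0.750 in Tnfr1-/- and 0.760 in wild type, and the log2 ratio differed by -0.02 (two-sided exact permutation test, p = 0.697, adjusted over 4 ratios 0.818). Counted in estimated reads, with no division by length, the geometric means were 0.732 and 0.744.

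The ratios within the pairs and of Alas2 to globin did not differ by the same test either. Hba-a1 to Hba-a2 had geometric means of 1.60 in Tnfr1-/- and 1.63 in wild type (exact permutation p = 0.818), and over the 11 libraries it ran from 1.42 to 1.97. Hbb-bs to Hbb-bt had 1.90 and 1.96 (exact permutation p = 0.649), and ran from 1.66 to 2.28. Alas2 to adult globin had 0.00421 and 0.00474 (exact permutation p = 0.465). Its range was the widest of the 4, from 3.01 per 1000 globin in Tnfr1-/- replicate 3 to 7.13 in Tnfr1-/- replicate 2. The adjusted p over the 4 ratios was 0.818 in each case, and the smallest p the design allows is 0.0022. In reads rather than per length, the pair ratios were 2.26 and 2.29 for the alpha genes and 1.61 and 1.67 for the beta genes. With fixed effective lengths, a pair ratio in reads is that per length times a constant. Its size thus depends on the effective lengths, while the comparison between genotypes stays the same by construction.

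**Figure D4:**
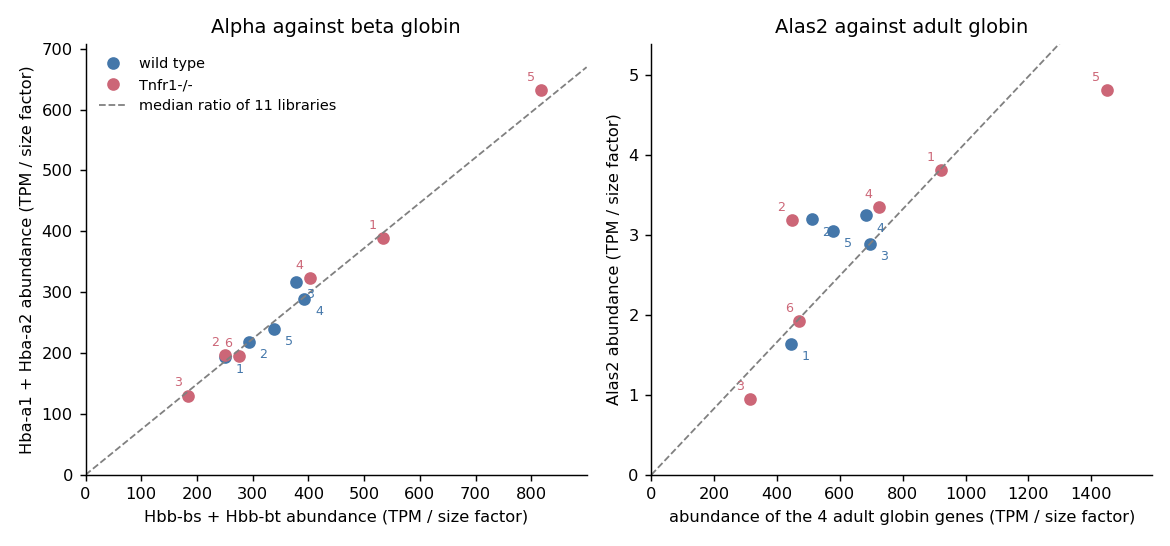
The left panel plots summed alpha against summed beta globin abundance and the right panel Alas2 against the sum of the 4 adult globin genes, in TPM divided by size factor, with a point and replicate number for each wild-type (blue) and Tnfr1-/- (red) library and a dashed line at the median ratio of the 11 libraries. The alpha to beta ratio stays between 0.707 and 0.841 from the lowest to the highest library, while Alas2 scatters more widely around its line.

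The other globin genes were close to absent or are known from other tissues. The list of embryonic and minor globins had 9 names, of which 7 were in the table and 0 passed the filter on low values. Hbb-y, Hbb-bh2, Hbb-bh0 and Hbq1a were listed at 0 in all 11 libraries, and the sum over the list was at most 0.175 in any library. Of the globins used outside red cells, the muscle oxygen store Mb had 10.4 ± 10.9 in Tnfr1-/- and 4.50 ± 3.28 in wild type, Cygb (cytoglobin) 20.5 ± 3.39 and 22.4 ± 5.04, and Ngb (neuroglobin) 6.54 ± 1.22 and 6.11 ± 1.61. Tnfr1-/- replicate 2 alone had 29.5 for Mb, and without it the Tnfr1-/- mean was 6.57 ± 6.21 (n = 5). None of the 3 tested genes passed an unadjusted p of 0.05, and their median log2 difference was 0.11.

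Red cell genes other than the members were low, or are also expressed by other cells. Of 38 names of membrane and reticulocyte genes, 37 were in the table and 26 were tested, with 0 called and 0 past the unadjusted threshold of 0.05 (among all tested genes, 4.2% passed it upward and 5.17% downward) and a median log2 difference of -0.01. The most abundant were Car2 (carbonic anhydrase 2, mean 540), Prdx2 (a peroxiredoxin, 395) and Gpx1 (glutathione peroxidase 1, 314), all of which are also expressed outside red cells. Slc4a1, the band 3 anion exchanger, and Epb42, a membrane skeleton protein, define red cells and were chosen here after their values were seen. They were near 0, with means of 0.351 and 0.172. The mean score of the 26 tested genes had an r of 0.25 with Hbb-bs over the libraries (permutation test, p = 0.468, rho 0.0, r -0.25 without the 2 farthest libraries).

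Of 12 erythroid transcription factors and receptors, 7 were tested, 0 were called, 1 passed the unadjusted threshold and the median log2 difference was -0.05. The mean levels of tested genes over all libraries included 61.5 for Ldb1, 19.9 for Eif2ak1 (a heme-regulated kinase), 19.4 for the receptor Kit and 9.50 for Lmo2, all above Alas2 at 2.91. Ldb1, a widely expressed partner of GATA factors, had 65.5 ± 3.97 in Tnfr1-/- and 56.7 ± 6.36 in wild type (limma unadjusted p = 0.0165, adjusted 0.433). Gata1 and Klf1, the factors that drive red cell genes, were chosen here after their values were seen and averaged 0.0248 and 0.294. The part of nucleated precursors in the globin values was not tested.

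The other genes of heme synthesis were all expressed, and none was called. All 13 were tested, of which 1 passed the unadjusted threshold of 0.05 upward and 2 downward, with a median log2 difference of -0.08. Alas1 was the second most abundant, with 94.3 ± 10.2 in Tnfr1-/- and 106 ± 21.5 in wild type, well above Alas2 per length. Urod, a decarboxylase of the pathway, had 39.2 ± 2.51 and 33.8 ± 3.15 (limma unadjusted p = 0.00989, adjusted 0.404), and Abcb6, a porphyrin transporter, 24.5 ± 0.961 and 27.8 ± 2.23 (unadjusted p = 0.0104, adjusted 0.404). The score of the list had an r of -0.43 with Hbb-bs (permutation test, p = 0.183).

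Genes of heme breakdown and iron storage showed 0 of 13 tested called, 3 lower at an unadjusted p under 0.05 and a median log2 difference of -0.05. The 3 were Ftl1 (ferritin light chain, 1277 ± 119 in Tnfr1-/- and 1426 ± 74.0 in wild type), Blvra (biliverdin reductase A, 28.7 ± 2.31 and 31.4 ± 1.22) and Bach1 (a heme-sensing repressor, 15.9 ± 1.13 and 18.2 ± 2.41), each with a limma adjusted p above 0.5. Hmox1, the inducible heme oxygenase, chosen here for its role, had 13.5 ± 2.00 and 12.6 ± 0.978. Of the iron uptake genes, 9 were tested and none passed an unadjusted p of 0.05, with a median of -0.01 and 137 ± 10.2 against 135 ± 12.02 for the transferrin receptor Tfrc.

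Markers of the other cells that blood and vessels carry were compared with globin in the same libraries. Of the platelet genes 5 of 12 were tested, led by Pf4 (platelet factor 4, 21.6 ± 3.54 in Tnfr1-/- and 23.7 ± 7.98 in wild type), with 0 past an unadjusted p of 0.05 and a median log2 difference of -0.06. Of the neutrophil genes 6 of 14 were tested, with 0 past that threshold and a median of 0.23, and Elane was listed at 0 in all libraries. The calgranulin gene S100a8 had 12.5 ± 13.6 in Tnfr1-/- and 5.60 ± 2.37 in wild type. Tnfr1-/- replicate 6 alone had 39.9 and the other 5 had 3.67 to 9.79, with a mean of 7.05 ± 2.39. All 15 endothelial genes were tested, with 0 past the threshold, a median of 0.00 and summed levels of 241 to 275 in Tnfr1-/- and 219 to 314 in wild type. Of the colon genes, 13 of 13 were tested and Cdx2, an intestinal transcription factor, was lower at the unadjusted threshold (76.2 ± 12.3 and 115 ± 11.5).

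Hbb-bs was compared with 7 list scores and the estimated depth over the 11 libraries, 8 relations in all. Its r was 0.39 with the platelet score, -0.29 with the neutrophil score, 0.45 with the endothelial score, -0.19 with the colon score and -0.18 with the heme breakdown score, and with estimated depth it was 0.63 (rho 0.66). The adjusted p of the permutation test over the 8 relations was 0.312 for depth, whose raw p was 0.039, and 0.479 to 0.607 for the scores. Without the 2 farthest libraries r with depth was 0.60. The part of depth in the globin values was not tested.

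Genes whose pattern was most like that of Hbb-bs were found among 14955 other genes with a mean of at least 1. None had an r over 0.9, 3 had one over 0.8 and 11 had one below -0.8, with a median of 0.0111. The highest was Ift122, a subunit of the intraflagellar transport complex, with an r of 0.90 over 11 libraries, which was 0.75 without the 2 libraries farthest from the median. Its abundance ran from 4.53 to 7.06 and was highest in Tnfr1-/- replicates 5 and 1. Of the next named genes, Rrp1 (a ribosome assembly factor) had 0.77, Rbl2 (a retinoblastoma-like protein) 0.77, Arid4b (a chromatin factor) 0.76, Arhgef3 0.76, Ppp4r1 (a phosphatase subunit) 0.75, Inca1 0.75, Rtf1 (a transcription elongation factor) 0.74 and Gab3 (a signaling adaptor) 0.74. The 3 other globin genes had 0.96 to 0.99 with Hbb-bs. Among tested genes with a mean of at least 1, the closest patterns to Hbb-bs were thus those of the other adult globin genes, and Alas2, at 0.85, came below Ift122.

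**Figure D5:**
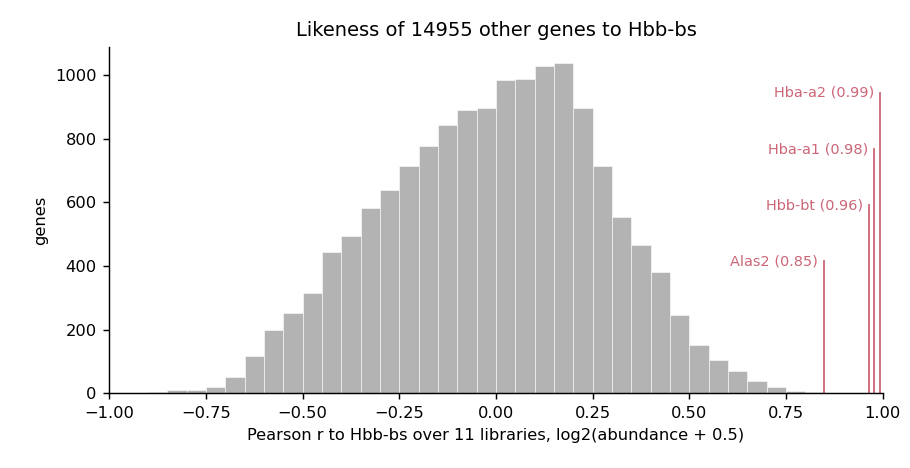
The histogram counts the 14955 other genes by their Pearson r to Hbb-bs over the 11 libraries, on log2(abundance + 0.5), and the red lines mark the other 4 members with their r. The other globin genes lie at 0.96 to 0.99, beyond every gray bar, and Alas2 at 0.85 lies at the edge of the distribution.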

How the data were processed

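Full-thickness colon RNA of 11 mice (6 Tnfr1-/-, 5 wild type) was read as stranded mRNA libraries, single-end, per the labels' protocols. CASAVA, kallisto and sleuth were used on the mm10 build, without stated versions, per the submitters' processing notes. The deposited signal of each library is TPM over its size factor, per the file headers and the column sums of 934563 to 1055498. The deposited p-value and q-value, the mean on the natural log scale and the log2 fold change come from the authors' own test per transcript.

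The table has 113991 lines for 113193 transcripts. Of the 15 lines of the members, 3 repeated a transcript and were dropped, leaving 12, which were summed per gene. The 97 transcripts without a gene (0.031% of abundance) were left out. Genes that reached 1 in 5 or more libraries were tested. The genotypes were contrasted on log2(value + 0.5), which understates changes of low genes, with limma 3.58.1 (trend on the mean) in R 4.3.3, two-sided, with Benjamini-Hochberg adjustment over all 15079 tested genes and 0.05 as the threshold. Had the table held counts, edgeR was planned, but abundances were deposited by the authors and no count test was run. Ratios were tested by exact permutation and correlations by permutation, with scipy 1.17.1 and pandas 2.3.3 in Python 3.11.15.

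Depth was estimated from low values, as the smallest factor that brought a near-best share of them within 0.02 of a whole read. The effective length was taken as 199 bases under the annotated one. At the chosen factor 52.4% to 54.7% of values were whole, against a median of 2.52% to 2.72% over the factors tried. Depths are thus estimates and give no intervals. Coordinates are from GENCODE M21 on GRCm38 and promoters from RefSeq on GRCm38.p6.

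The named genes are the 5 members, Tnfrsf1a, up to 4 genes of each list with the smallest p and 3 with the highest mean, and the 10 genes most like Hbb-bs, other genes being marked where they appear. A few genes, 1 of them named by this rule, were left out of the text. The members and the lists were chosen with earlier results of these data known. Alternatives were quantile normalization, rescaling to TPM with and without globin, other filters and pseudocounts, weights for library quality, a block for the replicate number, other transcript sums and leaving out each library. The limma script was tested on simulated data.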

Additional observations from a re-analysis of the deposited data

Results flagged for a closer look

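Alas2 in wild-type replicate 1 was 1.63, apart from the other 4 wild-type libraries, the nearest of which was at 2.88. Its gap to that library was 0.776 of the whole range of the group, above the limit of 0.71 for 5 samples. The same library was also the lowest wild-type library for each of the 4 globin genes, and Tnfr1-/- replicate 3 was lower still for all 5 genes. Over 20 groups of values examined, 1 was flagged, and about 1.0 is the number that chance gives.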

How the results depend on the processing

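No member passed the test in any alternative, and the smallest adjusted p was 0.763 (limma). The number of genes called was 3 with library quality weights. With those weights Hba-a2 turned to -0.059 and Hbb-bs to -0.041. Alas2, whose difference is near 0, became 0.016 after rescaling to TPM, 0.017 after rescaling without globin, 0.013 with a pseudocount of 1, and 0.082 in replicates 1 to 5 alone. Alas2 could not be tested with a filter at 10. Fitted with the replicate number as a block, over replicates 1 to 5, the differences were 0.22 for Hba-a1, 0.24 for Hba-a2, 0.22 for Hbb-bs, 0.26 for Hbb-bt and 0.082 for Alas2, with 1 gene called. Same-numbered libraries had correlations of 0.274, -0.00596, 0.383, -0.223 and 0.333. These were not compared with correlations of differently numbered libraries, so whether the numbers mark pairs was not tested.

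Leaving out each library in turn, 1 to 2 genes were called, with 2 without wild-type replicate 1. The log2 differences ran from -0.12 to 0.34 for Hba-a1, -0.091 to 0.35 for Hba-a2, -0.099 to 0.34 for Hbb-bs, -0.053 to 0.36 for Hbb-bt and -0.15 to 0.23 for Alas2. The log2 ratios ran from -0.045 to 0.016 for alpha to beta, -0.072 to 0.047 for Hba-a1 to Hba-a2, -0.092 to 0.0090 for Hbb-bs to Hbb-bt and -0.32 to -0.071 for Alas2 to globin. The median globin content was 528 to 612 TPM, and the lowest r between members 0.744 to 0.883. The cause of the changes in sign was not tested. The ratios of SDs, the globin content, the correlations and the means of listed genes with 1 library left out, the fit of replicates 1 to 5 alone and the ratios in reads were added after seeing the data. With 41 to 262 estimated reads per library, Alas2 has the least precise values.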
